A study of Mus musculus with 6 samples.

Results

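A block of PRAME-like genes on mouse chromosome 4 was examined in the RNA of ovulated metaphase II oocytes, eggs ready for fertilisation. The block had 8 members among the 516 genes of the deposited table: the protein-coding genes Pramef8, Gm13089, Gm13084, Gm13103, C87977 and Gm13125 and the pseudogenes Gm13058 and Gm13100. They were found by name, and the 1 Mb window that holds them has no other row of the table. All rows of that table, the members included, had been selected on the difference between the genotypes that is described here, so the differences below are a description and were not tested.

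In the Mtor CKO group (n = 3 libraries) Mtor, which encodes a growth-controlling kinase, was conditionally knocked out with Zp3-Cre, a Cre recombinase driven by the promoter of an egg coat gene that is active in growing oocytes. The WT group (n = 3 libraries) was wild type; whether it carried a Cre or a floxed allele is not given in the labels. Both groups were C57BL/6 females of postnatal day 24 that had received PMSG and, 48 h later, hCG, with oocytes taken from the oviduct 14 h after hCG. Each library was made from 5 oocytes, and whether the libraries came from separate mice is not given, so the spread between them may be partly technical. Levels are FPKM, a fragment count divided by transcript length and library size, and the deposited table holds no read counts, so depth and counting error are unknown. FPKM is relative to the library's own RNA, so the amount per oocyte is unknown. Of 15 oocyte marker genes, 2 (Zp2 and Nlrp5) were in the table, with a summed level of 234 to 254 FPKM in Mtor CKO, against 450 to 906 FPKM in WT. Of 14 cumulus and granulosa, 7 oviduct and 8 blood markers, 2, 1 and 0 were in the table. The cumulus markers there (Vcan and Mro) summed to 1.68 to 3.15 FPKM in Mtor CKO, against 4.50 to 9.86 FPKM in WT. Vcan was listed at 0 in all 3 Mtor CKO libraries, against values of 4.33, 0.245 and 0 FPKM for WT, and the groups overlapped. The oviduct marker Krt7 was at 4.23 to 10.1 FPKM in Mtor CKO, against 2.45 to 4.40 FPKM in WT. Mtor itself was not in the table and was not analysed here, so the targeted gene gives no check of the labels. The part of these markers in the differences below was not tested.

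PRAME-like genes encode leucine-rich repeat proteins and form one of the large gene families of the mouse, built by repeated tandem duplication. Many of them, among them the oogenesins Oog1 to Oog4, are transcribed mainly in germ cells and the early embryo. Human PRAME, the family's founder, is known as a tumour antigen and as a substrate-binding subunit of a cullin ubiquitin ligase. What the individual mouse members studied here do is not well established, so they are described by structure and level. Recent duplication leaves copies that are almost identical, and short reads from them can be hard to assign.

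The members lay on chromosome 4 of GRCm38 (mm10) over about 1 Mb that holds many of their relatives. In the window of 1 Mb, GENCODE M21 annotated 28 protein-coding genes, and all 28 were on a name list of the family that takes in Pramef, Pramel and Oog names and provisional names such as Gm13089 and C87977. It also annotated 18 pseudogenes there. The name list includes provisional names from this window, so the count of 28 was largely fixed in advance. Family membership of all 28 was not checked by sequence. In map order the rows were Pramef8 (ENSMUSG00000046862, 143412426 to 143421091), Gm13058 (ENSMUSG00000081523, 143595062 to 143597611) and Gm13089 (ENSMUSG00000070617, 143695690 to 143702711). Then came Gm13084 (ENSMUSG00000059218, 143809245 to 143816920), Gm13103 (ENSMUSG00000029451, 143846497 to 143853663) and Gm13100 (ENSMUSG00000083749, 143913857 to 143916442). C87977 (ENSMUSG00000046262, 144206748 to 144213537) and Gm13125 (ENSMUSG00000073721, 144372760 to 144377965, named Pramef20 in GENCODE M21) closed the series. Pramef8, Gm13103 and Gm13100 are on the plus strand and the other 5 on the minus strand. The gap to the next member ranged from 29.6 kb, between Gm13084 and Gm13103, to 290 kb, between Gm13100 and C87977. None of the 8 row intervals took in another annotated gene. The rows of Gm13089 and Gm13084 reached 810 and 827 bases past the annotated gene, at the 3′ end of Gm13089 and the 5′ end of Gm13084. Transcript models assembled from the reads were part of 6 of the 8 rows, all but those of the pseudogenes. The cluster ended 4.07 Mb before Mtor (148448611 to 148557683) on the same chromosome. Whether both groups carried the same DNA around Mtor is not given in the sources used here. A part of such linked DNA in the differences below cannot be told apart from a part of losing Mtor, and neither was tested.

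The members fell into those with a near-identical copy and those without, by blastn of the longest coding transcript (for pseudogenes, the transcript) against all GENCODE M21 transcripts. Gm13103 matched Gm13088 at 98.1% over 1761 bases, and Gm13084 matched Oog2 at 98.0% over 1730 bases. C87977 matched 4 genes at 94.7% to 95.6%: Gm13023 in the cluster and Oog1, Gm2042 and Gm10436 on chromosome 12. The pseudogenes Gm13058 and Gm13100 are each other's closest relatives, at 95.8%. In contrast, the closest relative of Gm13089 was Gm13103 at 80.8%, that of Pramef8 was Pramef25 at 74.8% over 38.8% of its transcript, and that of Gm13125 was Pramel1 at 65.4%. None of Gm13088, Oog2, Gm13023, Oog1, Gm2042 and Gm10436 is in the table, so their levels were not analysed here.

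How much sequence is shared was measured by sliding a window along each transcript and looking for the same bases in transcripts of any other gene. With windows of 50 bases, 56.2% of Gm13100, 55.6% of Gm13058, 49.2% of Gm13103, 45.3% of Gm13084 and 32.5% of C87977 was found elsewhere. With windows of 100 bases the shares were 34.85% and 34.96% for Gm13100 and Gm13058, 26.1% for Gm13103, 24.2% for Gm13084 and 15.0% for C87977. For Gm13089 a single window of 50 bases was shared, and for Pramef8 and Gm13125 none was. The read length is not given in the sources used here, so these windows only frame what reads could tell apart. An FPKM for any of the 5 members with a copy is therefore uncertain, since reads from the shared stretches can be split between genes. The part of read assignment in the differences below was not tested.

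**Figure D1:**
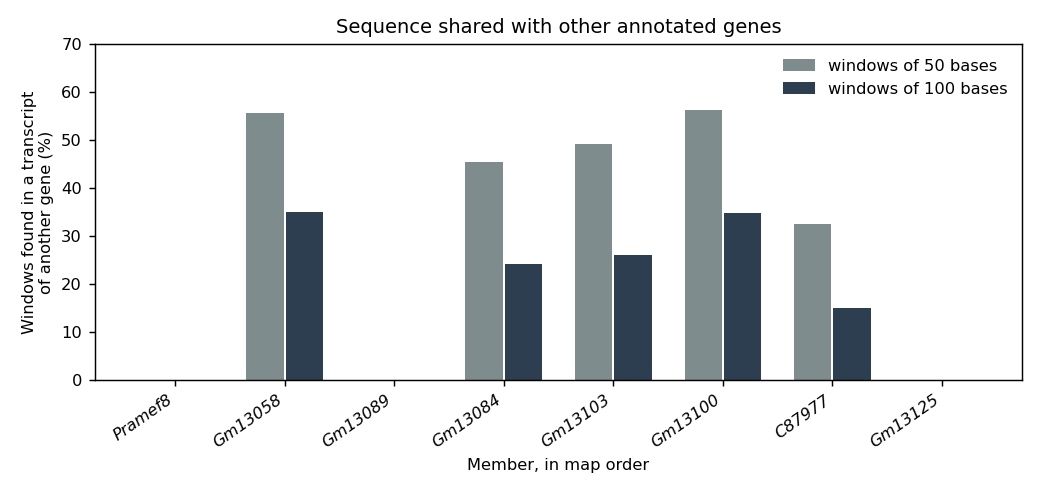
Share of each transcript (in percent, y axis) whose windows of 50 or 100 bases are also found in a transcript of another gene, for the 8 members in map order (x axis). Gm13058, Gm13084, Gm13103, Gm13100 and C87977 share between 15.0% and 56.2%, and Pramef8, Gm13089 and Gm13125 share almost nothing.

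The stretches below show where copies can be told apart. For each pair the window of 100 bases with the most differences is printed 5′ to 3′, among windows without gaps inside a single exon. In coding genes only coding bases were searched. The bases that differ are in capitals (GENCODE M21 transcripts, GRCm38). Gm13103 (chr4:143853036-143853135, plus strand) and Gm13088 (chr4:143654256-143654355, minus strand) differ at 6 of these coding bases, at 38 of 1809 bases compared in all, and are identical over runs of up to 343 bases.
Gm13103: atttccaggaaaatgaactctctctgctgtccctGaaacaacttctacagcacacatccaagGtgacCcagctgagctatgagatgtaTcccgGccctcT
Gm13088: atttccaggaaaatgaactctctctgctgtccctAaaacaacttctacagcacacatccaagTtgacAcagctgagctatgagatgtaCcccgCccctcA
Gm13084 (chr4:143810430-143810529, minus strand) and Oog2 (chr4:144196343-144196442, plus strand) differ at 4 of these coding bases and at 36 of 1791 in all.
Gm13084: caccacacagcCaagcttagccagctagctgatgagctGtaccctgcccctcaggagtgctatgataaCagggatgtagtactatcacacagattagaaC
Oog2: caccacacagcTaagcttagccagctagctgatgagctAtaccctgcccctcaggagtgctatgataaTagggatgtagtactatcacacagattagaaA
C87977 (chr4:144208579-144208678, minus strand) and Gm13023 (chr4:143793679-143793778, plus strand) differ at 10 of these coding bases and at 71 of 1804 in all. Oog1, Gm2042 and Gm10436 were not compared in this way, so the capitals do not show what tells C87977 from them.
C87977: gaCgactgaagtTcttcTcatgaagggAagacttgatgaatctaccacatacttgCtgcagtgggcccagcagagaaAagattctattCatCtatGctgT
Gm13023: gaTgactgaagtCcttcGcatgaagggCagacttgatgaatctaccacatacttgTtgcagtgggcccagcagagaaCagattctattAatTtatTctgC
The pseudogenes Gm13058 (chr4:143595151-143595250, minus strand) and Gm13100 (chr4:143916260-143916359, plus strand) differ at 4 of these bases and at 37 of 1422 in all.
Gm13058: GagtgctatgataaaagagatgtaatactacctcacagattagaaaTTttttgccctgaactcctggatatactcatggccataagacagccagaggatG
Gm13100: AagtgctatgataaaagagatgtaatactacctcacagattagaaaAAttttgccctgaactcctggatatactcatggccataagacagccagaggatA

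Of the 8 members, 5 were lower and 3 higher in Mtor CKO oocytes. In all 8 the 3 Mtor CKO libraries did not overlap the 3 WT libraries. Of all 516 genes of the table, 57.4% had every Mtor CKO library below every WT library, 14.5% had every one above, and 71.9% were apart in either direction, so separation is common in a table picked for it. The median log2 difference was -0.98 over the members and -1.01 over the table. Relative to that table median, Gm13089 turned to 0.10, Pramef8 (-0.07) and Gm13125 (-0.05) came close to 0, and Gm13084 shrank to -0.36. Gm13103, C87977, Gm13058 and Gm13100 stayed at -3.60, 2.85, 2.09 and 2.66 relative to it. With each library divided by its own median over the table, 5 members stayed apart (Pramef8, Gm13058, Gm13103, Gm13100 and C87977), against 33.1% of the table, and Gm13089, Gm13084 and Gm13125 overlapped. Log2 differences are Mtor CKO minus WT of the means of log2(FPKM + 1), a scale that understates the change of low genes. Every row of the authors' deposited table had an absolute log2 fold over 1 (smallest 1.0006) and a p below 0.01 (largest 0.0099), the bounds read from its values. The member nearest to the bound on the fold was Gm13125, with a log2 fold of -1.08 in the authors' deposited table. The largest p of a member there was 0.00125, for Gm13058, well inside the bound. The q-value in the authors' deposited table was at most 0.05 for 7 of the 8 members, all but Gm13058, and for 254 of the 516 rows. Genes just outside those bounds were not analysed here.

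Gm13103 stood furthest apart. Its level was 2.96, 4.25 and 5.08 FPKM in the Mtor CKO libraries, against 144.43, 103 and 121 FPKM in the WT libraries. The lowest WT library was 20.4 times the highest Mtor CKO library. The means were 4.10 ± 1.07 FPKM in Mtor CKO, against 123 ± 20.5 FPKM in WT (SD, n = 3 each), 30.1-fold higher in WT. The log2 difference was -4.61 (SE 0.23), the second lowest of the 516 rows. That rank depends on the scale: by the authors' log2 fold Gm13103 ranked 10 among the falls. With median scaling of the libraries the log2 difference was -3.79, and the ratio of geometric means, Mtor CKO over WT, was 0.0615. Gm13103 encodes a PRAME-like protein with a coding sequence of 1473 bases in GENCODE M21.

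Its neighbour Gm13084, 29.6 kb away on the other strand, was also lower in Mtor CKO but by much less. It had 52.1, 42.3 and 32.3 FPKM in the Mtor CKO libraries, against 110, 120 and 97.1 FPKM in the WT libraries. The groups did not overlap, and the means were 42.2 ± 9.88 FPKM in Mtor CKO, against 109 ± 11.5 FPKM in WT (SD, n = 3 each; log2 difference -1.37, SE 0.21). With median scaling the groups overlapped and the log2 difference was -0.48. In WT the 2 neighbours stood at similar levels, with Gm13084 at 0.764, 1.16 and 0.800 times Gm13103. For the Mtor CKO libraries that ratio of Gm13084 was 17.6, 9.96 and 6.36.

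The 3 coding members without a near-identical copy were lower in Mtor CKO by similar amounts. Gm13125 had 13.1, 12.6 and 8.14 FPKM in Mtor CKO, against 22.1, 27.3 and 23.1 FPKM in WT, a log2 difference of -1.06 (SE 0.22). Gm13089 had 4.88, 2.699 and 5.12 FPKM in Mtor CKO, against 6.16, 9.67 and 10.5 FPKM in WT, a log2 difference of -0.91 (SE 0.32). Here the groups came closest, with the lowest WT library 1.20 times the highest Mtor CKO library. Pramef8, the member at the proximal edge, had 1.99, 1.68 and 1.99 FPKM in Mtor CKO, against 4.39, 5.54 and 5.49 FPKM in WT, a log2 difference of -1.08 (SE 0.10). With median scaling the log2 differences of Gm13125, Gm13089 and Pramef8 were -0.20, -0.12 and -0.40, and the groups overlapped for Gm13125 and Gm13089. These 3 differences lay close to the table median of -1.01, around which Gm13089 changes sign, and grouping members by copies was chosen after their values were seen.

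C87977 went the other way and was the highest member in Mtor CKO. Its level was 327, 177 and 266 FPKM in the Mtor CKO libraries, against 64.0, 76.3 and 67.2 FPKM in the WT libraries. The lowest Mtor CKO library was 2.32 times the highest WT library. The means were 257 ± 75.5 FPKM in Mtor CKO, against 69.1 ± 6.39 FPKM in WT (SD, n = 3 each), 3.71-fold higher in Mtor CKO, with a log2 difference of 1.84 (SE 0.27). With median scaling it was 2.74, and the ratio of geometric means, Mtor CKO over WT, was 6.77. It was the fifth highest log2 difference of the table, and C87977 is the only coding member that was higher. Its coding sequence of 1494 bases was 80.0% identical to that of Gm13103.

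Both pseudogenes were higher in Mtor CKO. Gm13100 had 19.05, 16.8 and 15.0 FPKM in Mtor CKO, against 6.53, 5.59 and 2.75 FPKM in WT, a log2 difference of 1.65 (SE 0.32). Gm13058 had 3.49, 4.57 and 4.05 FPKM in Mtor CKO, against 2.04, 1.35 and 0.893 FPKM in WT, a log2 difference of 1.07 (SE 0.22). The groups did not overlap in either, and with median scaling the log2 differences were 2.43 for Gm13100 and 1.68 for Gm13058. Gm13100 stood at 5.46, 3.67 and 3.71 times Gm13058 in the Mtor CKO libraries, against 3.19, 4.14 and 3.08 times in the WT libraries, so the ratio of the pair overlapped between the genotypes. Because the pair shares long identical stretches, the 2 rows are not independent measurements.

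**Figure D2:**
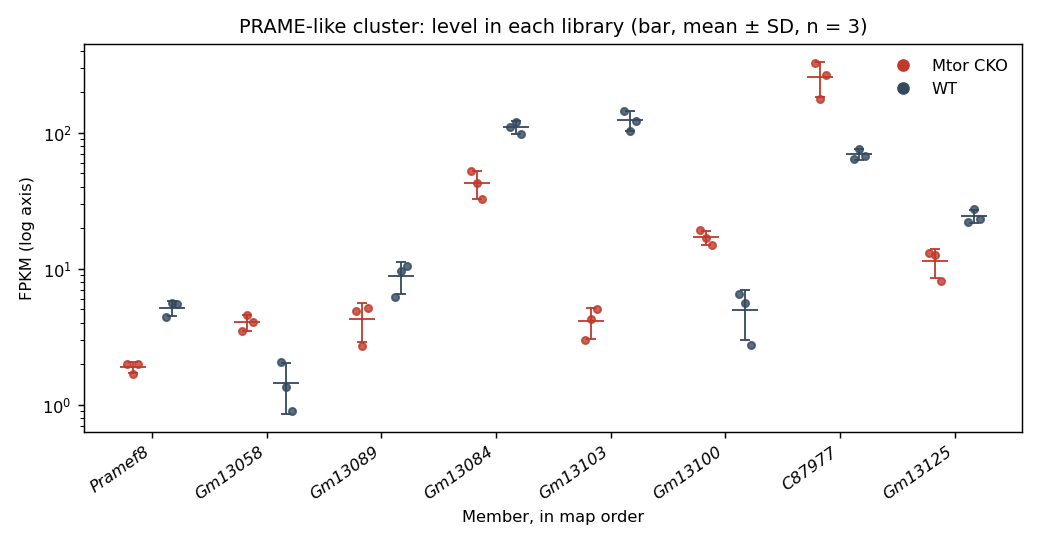
FPKM (log axis) of each member in map order (x axis) in the 3 Mtor CKO and 3 WT libraries (points), with mean ± SD (bars, n = 3). Gm13103 is at 2.96 to 5.08 FPKM in Mtor CKO, against 103 to 144.43 FPKM in WT, whereas C87977, Gm13058 and Gm13100 are higher in Mtor CKO.

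Along the map the directions of the 8 rows, before centring, changed several times. Centring turned Gm13089 to 0.10 and left Pramef8 at -0.07 and Gm13125 at -0.05. The window has 46 annotated genes, and those without a row give no value. Whether directions form blocks of neighbouring genes therefore cannot be read from these rows. From the proximal end the order was lower (Pramef8), higher (Gm13058), lower (Gm13089, Gm13084 and Gm13103), higher (Gm13100 and C87977) and lower (Gm13125). Gm13103 and Gm13100 are adjacent members, 60.2 kb apart and on the same strand, and they differed in opposite directions. Gm13100 was 6.43, 3.95 and 2.96 times Gm13103 in the Mtor CKO libraries and 0.0452, 0.0540 and 0.0226 times in the WT libraries. Strand did not separate the directions, since higher members are on the plus strand (Gm13100) and on the minus strand (Gm13058 and C87977). The closest pair, Gm13058 and Gm13100 at 97.4% identity, shared a direction, as did Gm13089 with Gm13084 (83.4%) and with Gm13103 (82.2%). Opposite directions were found for Gm13084 with Gm13100 (85.3%) and Gm13058 (83.7%), and for Gm13089 with Gm13100 (83.3%) and Gm13058 (82.4%). Over the 28 pairs of members, identity ran from 61.2% to 97.4% with a median of 78.3% (coding sequence, or whole transcript for pseudogenes).

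**Figure D3:**
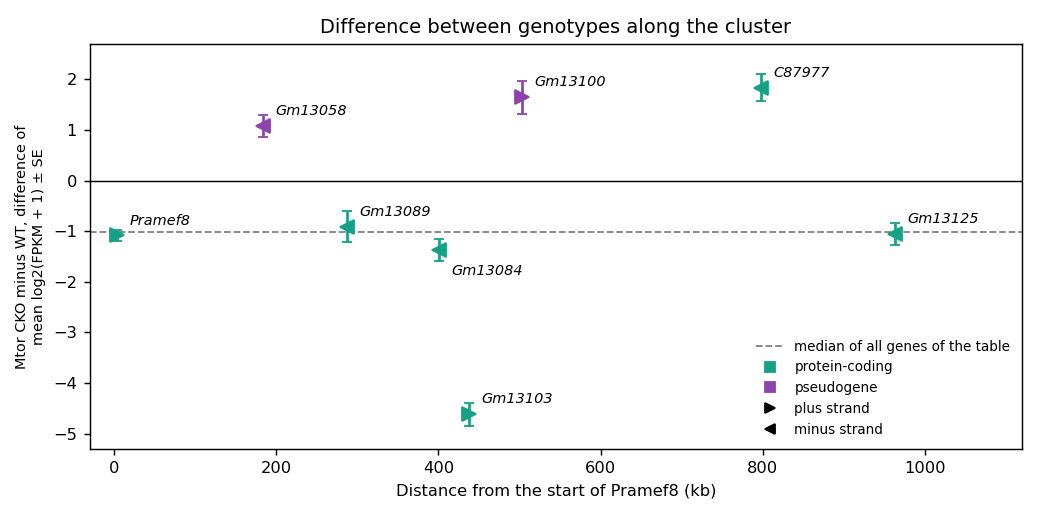
Difference of the means of log2(FPKM + 1), Mtor CKO minus WT (y axis, ± SE), against the distance from the start of Pramef8 in kb (x axis), with triangles pointing along the strand and colour marking gene type. Pramef8, Gm13089 and Gm13125 lie near the dashed median of the table at -1.01, Gm13103 lies at -4.61, and C87977, Gm13100 and Gm13058 lie above 0; centred on that median, Gm13089 turns to 0.10.

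The order of the members differed between the genotypes. In Mtor CKO it was C87977, Gm13084, Gm13100 and Gm13125, each apart from the next, followed by Gm13089, Gm13103 and Gm13058 with overlapping libraries, and then Pramef8. In WT it was Gm13103 and Gm13084, which overlapped, followed by C87977, Gm13125 and Gm13089, each apart from the next, then Pramef8 and Gm13100, which overlapped, and Gm13058. Gm13103 was thus among the lower members in Mtor CKO and among the top 2 in WT.

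Summed over the members, the level was close in both groups while its makeup differed. The sum was 424, 262 and 338 FPKM in the Mtor CKO libraries, against 360, 349 and 328 FPKM in the WT libraries, and the groups overlapped. The means were 341 ± 81.4 FPKM in Mtor CKO, against 346 ± 15.99 FPKM in WT (SD, n = 3 each; log2 difference -0.05, SE 0.20). This near equality depends on which members are summed and on scaling. Without C87977, the member with the highest mean over all libraries, the log2 difference of the sum was -1.71, and without both C87977 and Gm13103 it was -0.93. With each library divided by its median over the table it was 0.86. It also changed sign without Mtor CKO replicate 2, to 0.13.

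C87977 held 77.0%, 67.6% and 78.8% of the sum in the Mtor CKO libraries and 17.8%, 21.9% and 20.5% in the WT libraries. Gm13103 held 0.698%, 1.62% and 1.502% of the sum in the Mtor CKO libraries and 40.1%, 29.6% and 37.0% in the WT libraries. Gm13084 held 12.7 ± 3.33% in Mtor CKO and 31.5 ± 2.51% in WT (SD, n = 3 each). These shares do not change with the scaling of a library. Gm13100 was the other member with a larger share of some size in Mtor CKO, at 5.11 ± 1.12%, against 1.42 ± 0.51% in WT, and the remaining 4 each held 0.567% to 3.43% on average in Mtor CKO and 0.409% to 6.999% in WT.

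**Figure D4:**
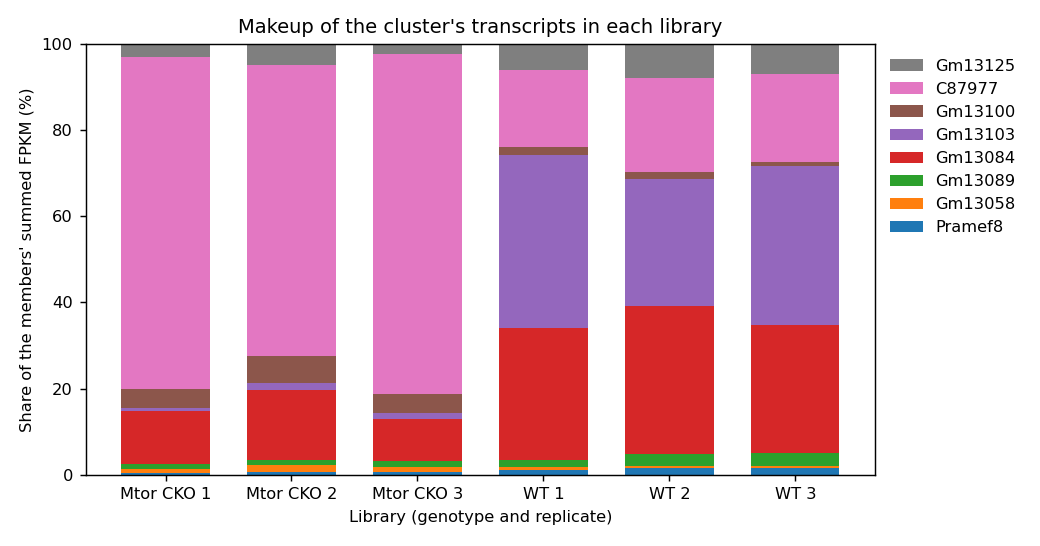
Share of the members' summed FPKM (in percent, y axis) held by each member in each library (x axis; 3 Mtor CKO, then 3 WT). C87977 takes 67.6% to 78.8% in Mtor CKO and 17.8% to 21.9% in WT, and Gm13103 takes 0.698% to 1.62% in Mtor CKO and 29.6% to 40.1% in WT.

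In the median, replicates of a genotype lay closer together for the members than for the table at large, as a description that is not matched on level. The median coefficient of variation over the members was 23.8% in Mtor CKO and 14.6% in WT. Over all genes of the table it was 42.8% in Mtor CKO and 30.2% in WT. The members' values ran from 9.55% (Pramef8) to 31.5% (Gm13089) in Mtor CKO and from 9.24% (C87977) to 40.6% (Gm13058) in WT. Both pseudogenes, Gm13058 and Gm13100 (39.8%), lay above the table's median in WT.

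The sequences before the RefSeq transcription start are shown for the 3 members with the highest means over all libraries, Gm13103 and Gm13084, which were lower in Mtor CKO, and C87977, which was higher. They are the 250 bases before the RefSeq start (GRCm38.p6), read 5′ to 3′ on the gene's strand. Capitals mark 3 motifs searched on both strands: TATAAA, the TATA box; CANNTG, the E-box bound by basic helix-loop-helix factors such as the oocyte factor FIGLA; and TAATTG, a homeobox motif bound by the oocyte factor NOBOX. The windows lie at chr4:143846247-143846496, plus strand (Gm13103), chr4:143816094-143816343, minus strand (Gm13084) and chr4:144213018-144213267, minus strand (C87977). The C87977 window lies inside the gene as GENCODE M21 annotates it, which ends at 144213318, and the Gm13084 window lies inside the 5′ extension of its row.
Gm13103: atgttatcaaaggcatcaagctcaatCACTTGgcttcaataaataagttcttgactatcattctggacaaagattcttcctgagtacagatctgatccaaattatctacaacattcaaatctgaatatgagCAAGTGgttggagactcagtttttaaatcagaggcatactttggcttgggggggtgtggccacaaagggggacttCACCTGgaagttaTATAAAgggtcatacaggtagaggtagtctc
Gm13084: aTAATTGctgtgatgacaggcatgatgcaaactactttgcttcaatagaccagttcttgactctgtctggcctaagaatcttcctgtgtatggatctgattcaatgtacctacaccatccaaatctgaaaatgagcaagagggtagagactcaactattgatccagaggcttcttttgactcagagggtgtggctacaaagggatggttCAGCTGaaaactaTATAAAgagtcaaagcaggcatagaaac
C87977: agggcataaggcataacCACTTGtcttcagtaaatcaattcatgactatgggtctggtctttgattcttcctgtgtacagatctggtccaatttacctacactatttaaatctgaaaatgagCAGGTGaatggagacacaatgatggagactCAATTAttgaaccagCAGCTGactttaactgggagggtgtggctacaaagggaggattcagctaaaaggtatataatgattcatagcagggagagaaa

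RefSeq sequences were at hand for 5 members, Gm13089, Gm13084, Gm13103, C87977 and Gm13125. TATAAA was found once each in Gm13089, Gm13084 and Gm13103 and not in C87977 or Gm13125. Of all 32851 promoters of that length, 12.4% hold it. This exact string misses a near match: close to the window's end C87977 and Gm13089 read TATATAAT, where Gm13084 and Gm13103 read TATATAAA. The TATAAA of Gm13089 lies further upstream. CANNTG was found in Gm13103 and C87977 (3 times each), Gm13089 (2) and Gm13084 (1), where 66.2% of all promoters hold it. TAATTG was found once each in Gm13084 and C87977, where 7.17% hold it. A match is a string of letters and not a shown binding site. Between Gm13103 and C87977, which differed in opposite directions, the 250 bases were 77.4% identical over 235 compared, and between Gm13103 and Gm13084 they were 75.2% identical over 242. Gm13125 had 57.6% to 63.9% identity to the other 4, which were 75.2% to 82.8% identical to each other. Its GENCODE M21 transcript is coding over 1431 of 1434 bases, and the 250 bases directly adjoin the 5′ end of that annotation. They may therefore not hold its promoter, and neither its identity nor its lack of motifs compares with the other members on equal terms.

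Outside the cluster, 2 other PRAME-family genes were in the table, both on chromosome 5 and both lower in Mtor CKO. C87414 (named Pramel34 in RefSeq, 93634993 to 93671551) had 129, 167 and 182 FPKM in Mtor CKO, against 307, 438 and 527 FPKM in WT, a log2 difference of -1.39 (SE 0.27). D5Ertd577e (named Pramel48 in RefSeq, 95456806 to 95485564) had 5.21, 4.85 and 3.35 FPKM in Mtor CKO, against 8.45, 10.3 and 8.64 FPKM in WT, a log2 difference of -0.90 (SE 0.18). In neither did the groups overlap, and both lie nearer to Gm13084, Gm13089 and Gm13125 in size of difference than to Gm13103. Of all genes of the table, 57.4% were lower in Mtor CKO without overlap, and the median log2 difference was -1.01. Such falls are therefore common in the table and are not particular to the family. Sequence shared with other genes was not measured for these 2 genes.

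The nearest rows on either side of the window were not PRAME-like. Before it, Pdpn, the gene of the membrane glycoprotein podoplanin, had 50.8, 13.8 and 27.1 FPKM in Mtor CKO, against 8.35, 12.01 and 18.4 FPKM in WT, and the groups overlapped. After it, Gm13152 had 55.9, 17.2 and 42.9 FPKM in Mtor CKO, against 65.8, 96.2 and 90.7 FPKM in WT, and the groups did not overlap.

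Likeness of profile was measured as the distance between the 6 centred log2(FPKM + 1) values of 2 genes, a description over 6 libraries of 2 genotypes. No row came close to Gm13103: the nearest 3 were the imprinted gene Mest (distance 3.34), Ccdc6 (3.37) and the cytochrome P450 gene Cyp2c29 (3.43), whose log2 differences of -2.23, -2.69 and -1.83 were smaller in size than its own. C87977 had closer company in 0610008F07Rik (0.491), Gm13157 (0.584) and Cgrrf1 (0.719), with log2 differences of 1.56, 1.42 and 1.68. Gm13157 is also on chromosome 4, whereas the other 2 are not.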

How the data were processed

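RNA of 5 ovulated oocytes per library was made into cDNA with a SMARTer low-input kit and 17 PCR cycles, per the labels' protocols, so fragments are not independent molecules. Build mm10 and TopHat2 2.0.8b, Cuffdiff and Cufflinks 2.1.1 are named, per the submitters' processing notes. The deposited table gives FPKM for each library and a group value, both computed by the authors, for genes picked for a difference. It also gives the authors' log2 fold change, p-value and q-value, whose sign was checked to run Mtor CKO over WT in all rows despite the header. How reads with several matching places were treated is not given in the sources used here.

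Library columns were matched to samples by title, and starts, counted from 0 in the table, are given from 1. Means, SDs, coefficients of variation, shares and differences of mean log2(FPKM + 1) were computed from the 3 libraries a group (Python 3.11.15, pandas 2.3.3), with no filter and no test, and the code was tested on simulated data. No libraries held identical values. Coordinates, transcripts and gene types came from GENCODE M21 (GRCm38), starts from RefSeq (GRCm38.p6), with BLAST 2.17.0 (E-value up to 1e-10) and Biopython 1.88 global alignments.

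The members, lists and motifs were chosen with earlier results of these data known. Genes named beside the members are the other family genes in the table, the nearest rows, and the 3 rows nearest in profile to each of the 2 members with the largest differences. The alternatives tried were pseudocounts of 0.1 and 0.5, median scaling, centring, a filter on level, each library left out, pairing by number and the authors' group values.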

Additional observations from a re-analysis of the deposited data

How the results depend on the processing

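The direction of each member's difference was the same in 96 of 96 values under the 12 settings that give member values other than centring. Most of this was fixed in advance, because no member's libraries overlapped between the groups. Pseudocounts, the filter, leaving out a library and pairing could not turn a direction. Only median scaling and the authors' group values could have done so. With differences centred on the table's median, Gm13089 turned to 0.10 on the log2 scale, and Pramef8 and Gm13125 came to -0.07 and -0.05. That split the members into 4 higher and 4 lower. Median scaling of the libraries left 5 of 8 members apart between the groups (Pramef8, Gm13058, Gm13103, Gm13100 and C87977), against 33.1% of the table. The log2 difference of the members' sum moved to 0.86 with median scaling, to 0.97 with centring and to -1.71 without the most abundant member, and ran from -0.22 to 0.13 with 1 library left out. Leaving out 1 library moved that of Gm13103 between -4.75 and -4.44 and that of C87977 between 1.64 and 2.08. The cause of these shifts was not tested. Same-numbered libraries share only a number: their deviations correlated at 0.0961, 0.187 and 0.0648 over genes, and Mtor CKO replicate 1 correlated best with WT replicate 3. The replicate block left the log2 difference of the sum at -0.05 and each member higher in 3 of 3 pairs or lower in 3 of 3. Both outcomes were fixed, since a mean of paired differences equals the difference of the means and no member's libraries overlapped. They therefore say nothing about pairing. Depth and therefore counting error are unknown, also for low values such as those of Gm13058.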
